A study of Mus musculus with 8 samples.

Results

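The 10 genes described here encode the transcription factors Erg, Fli1, Ets1, Sox7, Sox17, Sox18, Tal1, Gata2, Klf2 and Klf4, which are known for setting and keeping the identity of endothelial cells. They were chosen by symbol from the ETS, SOXF, TAL1, GATA2 and KLF factors, by a rule that reads no measured value, though results of these data were known when the rule was written, and all 10 were found among the 20057 genes measured. RNA-sequencing was performed on tumor endothelial cells from B16-F10 melanomas, a transplanted mouse melanoma line grown under the skin of male C57BL/6 mice that were 8 weeks old when 250000 tumor cells were implanted. Tumors of 4 mice were treated with agonistic CD40 mAb (FGK4.5), an antibody that activates the receptor CD40, and tumors of 4 other mice with isotype control (rat IgG2a, 2A3). Each mouse was given 2 injections of 30 µg around the tumor, on days 13 and 16, and by the labels tumors were taken 1 day after the last, although the study's methods also name a later harvest, which no label ties to a library. About 100000 live cells that lacked the leukocyte marker CD45 and carried the endothelial marker CD31 were sorted from each tumor, and 10 ng of their RNA was made into 1 library. Libraries are called by mouse, with 5N, 6L, 6R and 10N for agonistic CD40 mAb and 5L, 7N, 8N and 9L for isotype control. The comparison asks whether the RNA levels of these factors differed between tumor endothelial cells of treated and control tumors.

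ETS factors such as ERG and FLI1 bind the enhancers of most endothelial genes and hold the cells in their endothelial state, while the SOXF factors SOX7, SOX17 and SOX18 act in vessel formation and in arterial and lymphatic specification. TAL1 and GATA2 are shared by endothelial and blood-forming cells and bind DNA together with LMO2 and LDB1. KLF2 and KLF4 are induced by blood flow and are known for restraining inflammatory activation of endothelium. Values are read counts per gene divided by a size factor of the library, called normalized reads. Fold changes are the difference of the mean log2(value + 1), agonistic CD40 mAb minus isotype control, with the standard error (SE) and p of limma fitted over 12969 genes. A gene was called past the threshold when the ratio of group means was at least 1.5 in either direction with an unadjusted p of at most 0.05.

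The libraries held 12512772 to 64938728 reads on genes after agonistic CD40 mAb and 2971689 to 35583141 after isotype control, so that 1 read was worth 0.118 to 2.44 normalized reads, and 5L was the shallowest. The summed value of 8 endothelial markers, among them Pecam1, which encodes the CD31 used for the sort, was 35881 to 52524 normalized reads after agonistic CD40 mAb and 31933 to 43946 after isotype control, highest in 6L and lowest in 5L, and none of the 8 markers was at 0. Sums of 5 leukocyte markers (73.3 to 198) and of 7 T and NK cell markers (0 to 5.41, with Cd3d at 0 in all libraries) were low in both groups. The 7 macrophage markers summed to 270.0 to 475 normalized reads after agonistic CD40 mAb and 184 to 430 after isotype control, with 5 of 7 above 0 (median log2 fold change 0.55) and none at p of at most 0.05. The 5 lymphatic endothelial markers summed to 3047 to 5068 normalized reads after agonistic CD40 mAb and 2050.4 to 3821 after isotype control, highest in 6L and lowest in 5L, with 5 of 5 above 0 (median log2 fold change 0.30) and none at p of at most 0.05. Markers of melanoma cells, fibroblasts and mural cells were present in every library. The summed melanoma markers were 34091 to 57420 normalized reads after agonistic CD40 mAb and 36619 to 87803 after isotype control, highest in 5L and lowest in 6L. The summed fibroblast markers were 34308 to 84214 and 28003 to 63432, and the summed mural markers 13965 to 22906 and 10034 to 33369. All 5 tested red blood cell markers were lower after agonistic CD40 mAb with p of at most 0.05 in limma, with sums of 276 to 1267 against 853 to 8774 normalized reads. Platelet markers, from cells that also use Tal1, Gata2 and Fli1, summed to 237 to 955 and 85.5 to 733 normalized reads, highest in 6L and lowest in 5L, with 5 of 5 above 0 (median log2 fold change 0.52) and none at p of at most 0.05. Those of mast cells, which use Gata2, summed to 0.118 to 6.41 and 0 to 9.52 with Mcpt4 at 0 in all libraries. The part of these other cells in the values below was not tested, and in bulk RNA fewer cells of a type cannot be told apart from less RNA per cell.

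No factor passed the threshold, against 1.52% of all genes tested (1.28% higher and 0.239% lower after agonistic CD40 mAb). None of the 10 had p of at most 0.05 in limma, against 2.01% of all genes, and none had an adjusted p under 0.05, against 0.0154%. For none did the values of the 2 groups fail to overlap, against 1.57% of all genes. With reads recovered from the normalized values, edgeR and DESeq2 likewise gave p of at most 0.05 for none of the 10, against 1.94% and 2.23% of all genes. The group mean of the logarithm was higher after agonistic CD40 mAb for 10 of the 10 factors, against 51.3% of all genes tested, though limma with library quality weights put Erg, Sox18 and Tal1 below 0 and the median of the 10 at 0.079. The median log2 fold change was 0.22 for the 10 factors and 0.00457 for all genes, with a range from 0.02 for Klf2 to 0.39 for Klf4. The 95% intervals reached from 0.715-fold to 1.76-fold over the 10 factors, and each factor's own interval included 1.

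**Figure D1:**
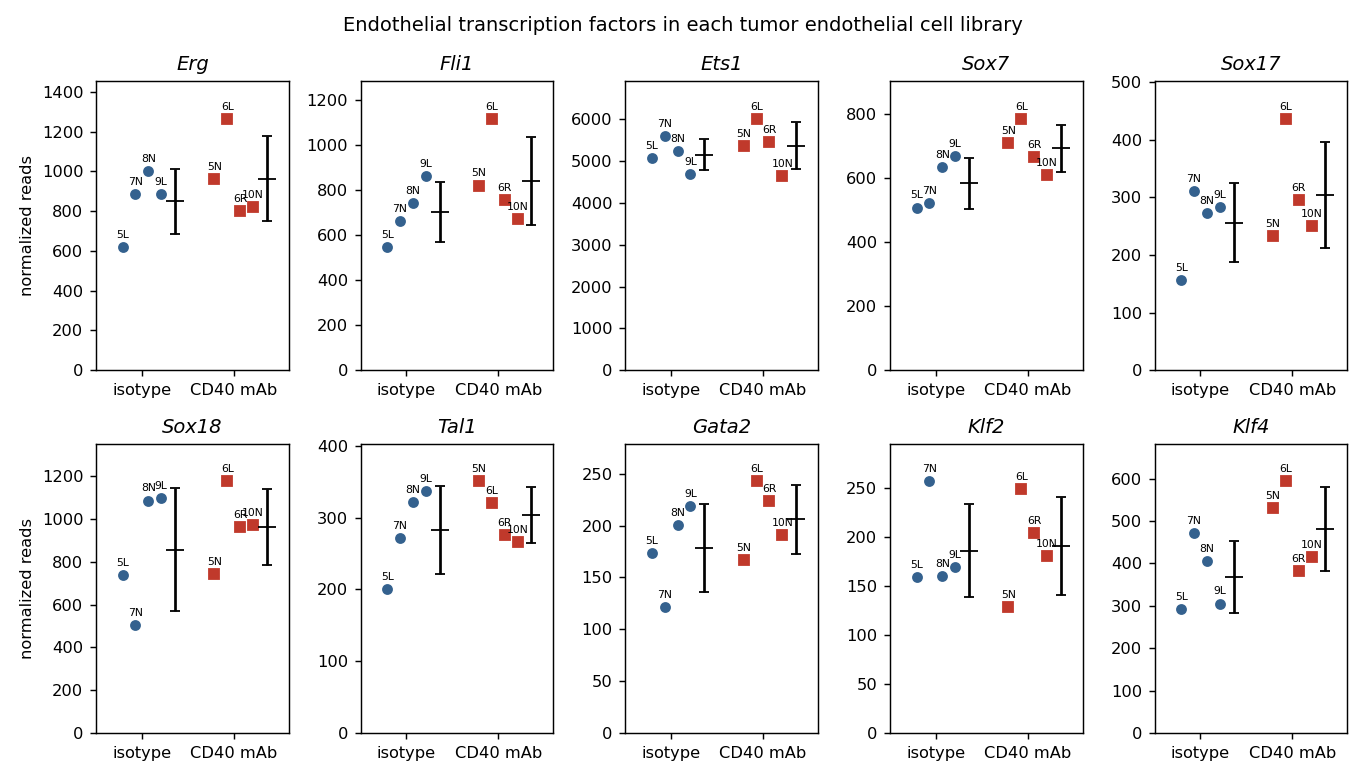
Normalized reads of each factor in the 8 libraries, 1 panel per gene with isotype control on the left and agonistic CD40 mAb on the right. Points are libraries and bars the mean with SD. The groups overlap in all 10 panels, and the 6L library is the highest in 8 of them.

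Of the ETS factors, Erg (chr16:95359169-95586593, minus strand, mm10), which maintains vascular integrity and endothelial identity, measured 964, 1265, 800.2 and 821 normalized reads in 5N, 6L, 6R and 10N, and 621, 887, 1003 and 885 in 5L, 7N, 8N and 9L. The means were 962 ± 214 (SD, n = 4) and 849 ± 162 (SD, n = 4), and 1 of the 4 treated libraries, 6L, lay above the highest control. The log2 fold change of 0.18 (SE 0.18, p = 0.356 in limma, exact permutation p = 0.486) corresponds to a ratio of 1.13, and was 0.035 without 5L and 0.038 without 6L. Fli1 (chr9:32422204-32542861, minus strand), the closest relative of Erg and its neighbor in function, measured 819, 1115, 754 and 669.5 normalized reads after agonistic CD40 mAb and 545, 661, 741 and 859 after isotype control. Here too 6L was the highest and 5L the lowest library, and the groups overlapped. Fli1 differed by 0.25 on the log2 scale (SE 0.18, p = 0.196 in limma, exact permutation p = 0.314), with means of 839 ± 194 and 702 ± 132 (SD, n = 4 each), and by 0.11 without 6L and 0.14 without 5L. Ets1 (chr9:32636221-32757820, plus strand), a factor of angiogenic endothelium that is also used by lymphocytes, had the smallest spread of the 10 as a ratio of the highest to the lowest library (1.30), with 5353, 6014, 5458 and 4639 normalized reads after agonistic CD40 mAb and 5081, 5600, 5237 and 4698 after isotype control. Its means of 5366 ± 565 and 5154 ± 374 (SD, n = 4 each) differed by 0.05 on the log2 scale (SE 0.12, p = 0.664 in limma, exact permutation p = 0.571), and without 6L the difference was -0.0020. The interval for Ets1 spans 0.861-fold to 1.25-fold.

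The SOXF factors act partly in place of each other in vessels. Sox7 (chr14:63943673-63950732, plus strand) measured 709.5, 786, 667 and 611 normalized reads after agonistic CD40 mAb and 508, 523, 634 and 669.8 after isotype control. All 4 treated libraries lay above the median of the controls, 2 of them above the highest control. Sox7 differed by 0.25 on the log2 scale (SE 0.13, p = 0.0883 in limma, exact permutation p = 0.143), with means of 693 ± 73.7 and 584 ± 80.2 (SD, n = 4 each) and an interval of 0.970-fold to 1.46-fold. Without 9L the unadjusted p of Sox7 was 0.0474 at a ratio of 1.25, still below the threshold. No other omission of a single library brought Sox7 to p of at most 0.05 in limma. Its log2 fold change ranged from 0.188 without 5L to 0.320 without 9L, and was 0.189 without 6L and 0.202 without 7N. Sox17 (chr1:4490931-4497354, minus strand), a factor of arterial endothelium, measured 234, 436, 296 and 251 normalized reads after agonistic CD40 mAb and 156, 312, 274 and 283 after isotype control. The value in 5L rests on 64 reads, which carry a counting error of 12.5%. Sox17 had means of 304 ± 92.0 and 256 ± 68.5 (SD, n = 4 each) and a log2 fold change of 0.25 (SE 0.25, p = 0.342 in limma, exact permutation p = 0.514), which was 0.03 without 5L and 0.06 without 6L. In the annotation, 14.99% of the 50-base windows of Sox17 transcripts also occur in Gm37587, which lies on the opposite strand, and the library kit does not keep strand, so that reads of the 2 genes cannot be told apart there. Sox18 (chr2:181669836-181671640, minus strand), required for lymphatic vessel development, measured 743, 1177, 964 and 974 normalized reads after agonistic CD40 mAb and 738, 504, 1088 and 1101 after isotype control. The isotype control libraries fell into a low pair, 5L and 7N, and a high pair, 8N and 9L, with the treated libraries between and around them. Its means of 965 ± 177 and 858 ± 289 (SD, n = 4 each) gave a log2 fold change of 0.22 (SE 0.24, p = 0.385 in limma, exact permutation p = 0.571), which was -0.01 without 7N.

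Tal1 (chr4:115056426-115071755, plus strand), a basic helix-loop-helix factor of early blood and endothelium, measured 350.4, 319.8, 276 and 267 normalized reads after agonistic CD40 mAb and 200.4, 271, 321 and 337 after isotype control. The treated libraries lay inside the range of the controls apart from 5N, the highest of the 8. Tal1 had means of 303 ± 39.1 and 283 ± 61.5 (SD, n = 4 each) and a log2 fold change of 0.12 (SE 0.18, p = 0.518 in limma, exact permutation p = 0.571), which was -0.03 without 5L. Gata2 (chr6:88193891-88207032, plus strand), a zinc finger factor that binds with TAL1 at endothelial enhancers, was the lowest of the 10 per kb of merged exon. It measured 167, 243, 223 and 191 normalized reads after agonistic CD40 mAb and 174, 121, 200.1 and 219 after isotype control. With means of 206 ± 33.7 and 179 ± 42.5 (SD, n = 4 each), Gata2 differed by 0.22 on the log2 scale (SE 0.21, p = 0.304 in limma, exact permutation p = 0.400). Without 7N the difference was 0.050 and without 6L 0.14. The lowest value, in 7N, rests on 51 reads with a counting error of 14.0%.

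To show the DNA at which factors of these families could bind one another's genes, the 250 bases before an annotated start were taken from RefSeq (GRCm38.p6) for 5 of the 10 factors, Erg, Tal1, Gata2, Klf2 and Klf4, which together have 9 such windows. Those of Tal1 and Gata2 nearest the gene's 5′ end and the window of Erg with a GATA match (1 of 3, chosen for that match) are shown 5′ to 3′ on the strand of the gene, with the core of ETS sites (GGAA, or TTCC on the other strand) and of GATA sites (AGATAA, or TTATCT) in capitals. The positions are chr16:95459349-95459598 (minus strand) for Erg, chr4:115056176-115056425 (plus strand) for Tal1 and chr6:88193641-88193890 (plus strand) for Gata2.
Erg: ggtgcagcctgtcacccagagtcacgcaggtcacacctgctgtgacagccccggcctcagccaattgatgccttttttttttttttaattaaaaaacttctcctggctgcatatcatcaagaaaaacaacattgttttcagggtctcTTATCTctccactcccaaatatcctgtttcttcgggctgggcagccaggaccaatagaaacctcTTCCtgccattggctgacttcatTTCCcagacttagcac
Tal1: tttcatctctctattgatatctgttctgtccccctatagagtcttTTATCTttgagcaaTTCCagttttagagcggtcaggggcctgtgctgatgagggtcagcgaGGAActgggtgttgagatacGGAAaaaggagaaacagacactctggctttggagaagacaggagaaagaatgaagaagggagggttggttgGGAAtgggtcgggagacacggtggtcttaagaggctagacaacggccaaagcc
Gata2: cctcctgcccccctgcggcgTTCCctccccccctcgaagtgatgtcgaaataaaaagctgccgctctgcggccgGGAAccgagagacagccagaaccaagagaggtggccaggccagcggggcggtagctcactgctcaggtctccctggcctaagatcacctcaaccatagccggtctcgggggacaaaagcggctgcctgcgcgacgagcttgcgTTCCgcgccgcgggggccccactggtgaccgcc
The Erg window holds 2 ETS cores and 1 GATA core, that of Tal1 4 and 1, and that of Gata2 3 ETS cores. The Erg window nearest the 5′ end of the gene, at chr16:95586594-95586843, holds 0 of either. Among 32851 windows of the same length before RefSeq starts, 93.4% hold the ETS core and 9.99% the GATA core. A match of these letters is a description of the sequence and not a measured site.

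KLF2 and KLF4, zinc finger factors of quiescent endothelium, are known to raise Nos3 and Thbd and to hold back Vcam1 and other inflammatory genes. Klf2 (chr8:72319033-72321656, plus strand) measured 129, 249, 205 and 181 normalized reads after agonistic CD40 mAb and 159, 257, 161 and 169 after isotype control. In the control group 7N, at 257, stood apart from the other 3 libraries. The means were 191 ± 50.3 and 186 ± 47.3 (SD, n = 4 each). The log2 fold change of 0.02 (SE 0.23, p = 0.919 in limma, exact permutation p = 0.943) was the smallest of the 10 and took either sign as single libraries were left out, from -0.12 without 6L to 0.20 without 5N. Klf4 (chr4:55527143-55532466, minus strand) measured 532, 593, 382 and 414 normalized reads after agonistic CD40 mAb and 293, 471, 406 and 305 after isotype control. All 4 treated libraries lay above the median of the controls and 2, 5N and 6L, above the highest control. Klf4 differed by 0.39 on the log2 scale (SE 0.19, p = 0.0741 in limma, exact permutation p = 0.143), the largest of the 10, with means of 480.3 ± 99.1 and 369 ± 84.8 (SD, n = 4 each), a ratio of 1.30 and an interval of 0.970-fold to 1.76-fold. Without 7N the unadjusted p for Klf4 was 0.0215 at a ratio of 1.43, and without 6R 0.0411 at 1.39. No other omission of a single library brought Klf4 to p of at most 0.05 in limma. Its log2 fold change ranged from 0.276 without 6L to 0.512 without 7N, and was 0.285 without 5L.

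**Figure D2:**
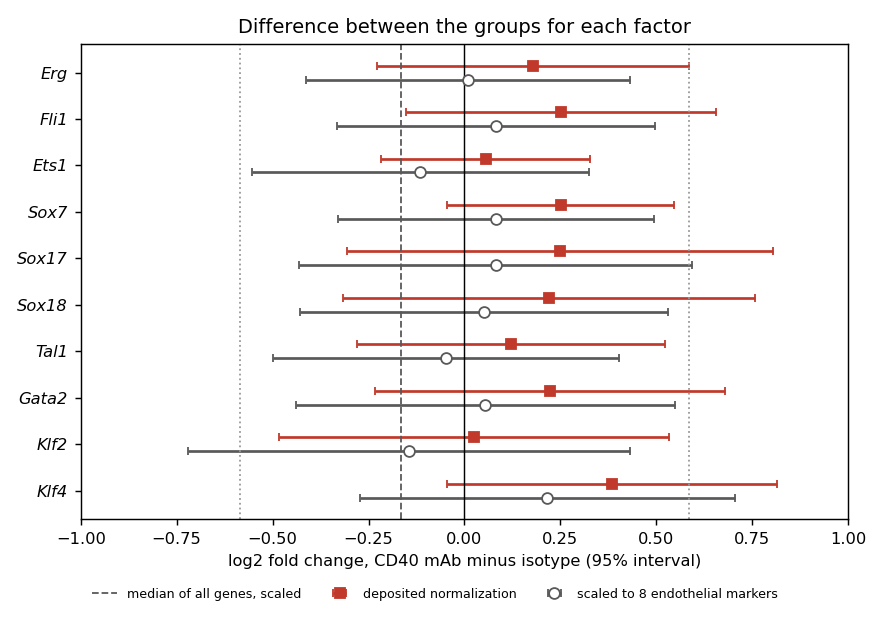
Log2 fold change of each factor, agonistic CD40 mAb minus isotype control, with 95% intervals. Filled squares are the deposited normalized reads and open circles the same values divided by the sum of 8 endothelial markers. All 20 intervals include 0. Scaling moves all genes alike, with their median at -0.17, marked by the dashed line, and dotted lines are a ratio of 1.5. The circles of Ets1, Tal1 and Klf2 lie between the dashed line and 0.

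Per kb of merged exon and over the 8 libraries, the level of the factors ran from 621 ± 54.0 normalized reads (SD, n = 8) for Ets1 to 35.6 ± 7.11 for Gata2. Ets1 and Sox18 (563 ± 142) headed the order, and each was above the other in 4 of the 8 libraries, so that they were not separated. Erg followed with 261 ± 53.6, Fli1 with 221 ± 48.8, Sox7 with 194 ± 27.9 and Klf4 with 139 ± 34.1, each above the next in 8 of 8 libraries. Klf2 (102 ± 24.5) was above Tal1 (66.9 ± 11.2) in 7 libraries, and Tal1 above Sox17 (58.7 ± 16.6) in 6, while Sox17 was above Gata2 in all 8. With the longest transcript in place of merged exons, Ets1 stood at 1035 ± 90.1 and above Sox18 in 8 of 8 libraries, and Sox17 moved to 86.4 per kb, above Tal1. Gata2 moved to 53.8 per kb, and Tal1 was then above it in 7 of 8 libraries.

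**Figure D3:**
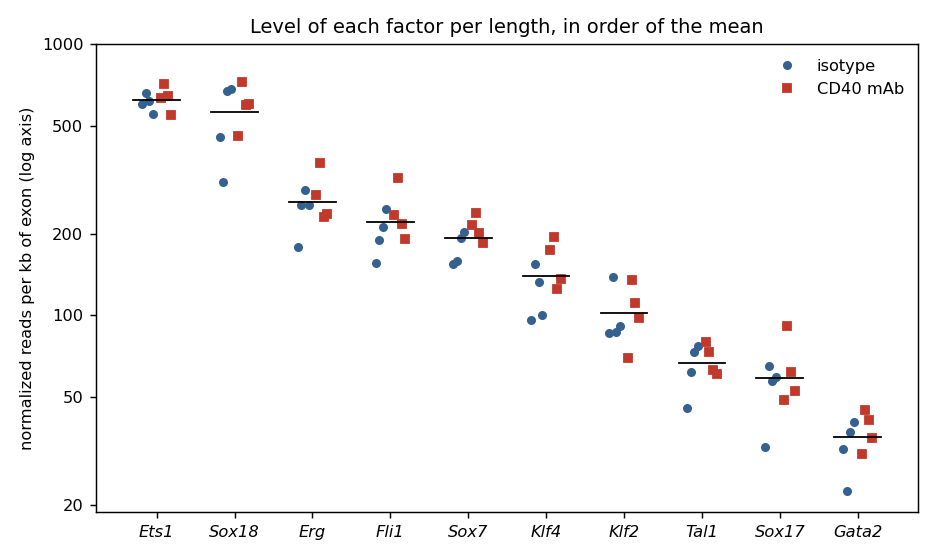
Level of each factor in normalized reads per kb of merged exon, on a log axis, with 1 point per library and genes in descending order. Ets1 and Sox18 lie highest and overlap, and Gata2 lies lowest in all 8 libraries.

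The factors varied between tumors within each group. The highest value lay in 6L for 8 of the 10 factors, in 5N for Tal1 and in 7N for Klf2. The lowest lay in 5L for 6 factors (Erg, Fli1, Sox7, Sox17, Tal1 and Klf4), in 7N for Sox18 and Gata2, in 10N for Ets1 and in 5N for Klf2. Without 6L the median log2 fold change of the 10 factors was 0.10 with 8 of 10 above 0, and without 5L it was 0.09 with 8 of 10 above 0. Without any other single library it lay between 0.19 and 0.31.

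**Figure D4:**
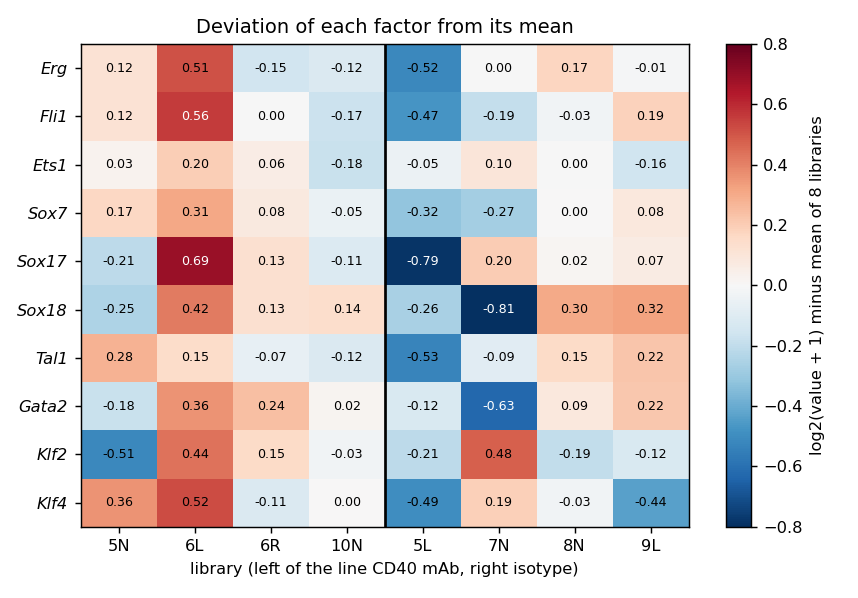
Deviation of log2(value + 1) of each factor from its mean over the 8 libraries, with genes in rows and libraries in columns, agonistic CD40 mAb left of the line. Library 6L is above the mean for all 10 factors and 5L is below it for all 10.

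The same 2 libraries had the highest and lowest sums of endothelial markers, and both quantities share the size factor of the library. Over the 8 libraries the endothelial marker sum correlated with Fli1 (Pearson r = 0.94, exact permutation p adjusted over 40 relations = 0.018, Spearman rho = 0.83 with adjusted p = 0.154) and with Sox7 (r = 0.94, exact permutation adjusted p = 0.018, rho = 0.86 with adjusted p = 0.154). Without 6L and 5L, r was 0.83 and 0.84. For Erg r was 0.87 (exact permutation adjusted p = 0.062) and for the other factors it ranged from 0.01 for Klf2 to 0.80 for Tal1. The melanoma marker sum had a negative r with 9 of the 10 factors, to -0.87 for Erg, with no adjusted exact permutation p under 0.05.

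**Figure D5:**
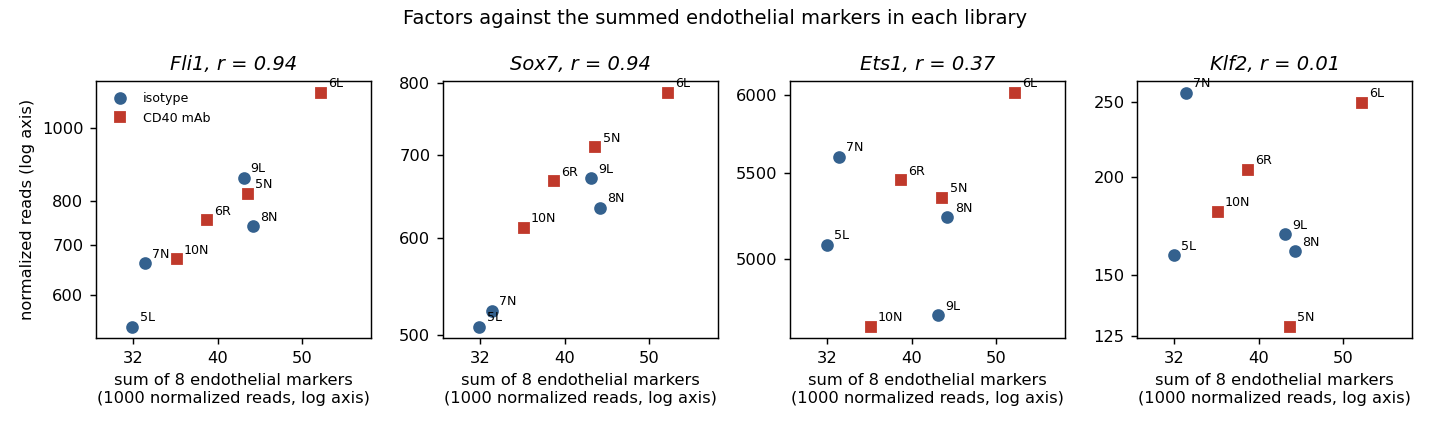
Normalized reads of Fli1, Sox7, Ets1 and Klf2 against the sum of 8 endothelial markers, both on log axes, with 1 point per library. Over the 8 libraries r was 0.94 for Fli1 and 0.01 for Klf2.

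When every value was divided by the endothelial marker sum, the median of all genes moved to -0.17 on the log2 scale, since dividing a library by a single number shifts all of its genes alike. The log2 fold changes of the 10 factors moved down by about the same amount, to a range from -0.14 for Klf2 to 0.22 for Klf4 with a median of 0.05, and their distance from other genes stays as it was by construction.

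Among the 45 pairs of factors, 37 had a positive r over the 8 libraries, with a median of 0.54. Sox18 and Gata2 followed each other most closely by r (0.96, exact permutation adjusted p = 0.0212, rho = 0.83 with adjusted p = 0.231), and r was 0.85 without 5L and 7N. Fli1 and Sox7 had r = 0.93 (exact permutation adjusted p = 0.0212) and rho = 0.98 (adjusted p = 0.0179), and r was 0.83 without 6L and 5L. For Erg and Sox17, r = 0.85 became -0.31 without 6L and 5L, so this relation rests on those libraries. Among all genes tested, the pattern most like each of the factors other than Erg by Pearson r over the 8 libraries was that of Thsd1 for Fli1 (0.97), Gpbp1l1 for Ets1 (0.97), Capn5 for Sox7 (1.00), Vegfc for Sox17 (0.98), Vwa1 for Sox18 (0.99), Galnt16 for Tal1 (0.99), Agpat2 for Gata2 (0.99), Malsu1 for Klf2 (0.95) and Prrg1 for Klf4 (0.95). These are the highest values among 12969 genes and are given as a description.

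Genes that work with or downstream of the factors are given by list. Of 16 other ETS factors, 14 were tested, 8 had a log2 fold change above 0 (median 0.03) and none had p of at most 0.05. Ets2, an effector of growth factor signaling, had a log2 fold change of 0.16 and the repressor Elk3 of -0.01, while Etv2, needed in embryonic endothelium, had no read in any library. Of 10 partners and relatives of TAL1 and GATA2, 8 were tested and 6 were above 0 (median 0.16), with Tcf4 at 0.17 and Tcf12 at -0.04, both partners of TAL1 in dimers. The blood cell factors Gata1 and Gata3 were too low to test. Of 22 other endothelial transcription factors, 16 were above 0 (median 0.19), with Epas1 at 0.18 and Hif1a, its relative in the hypoxia response, at -0.0050. No gene of these 2 lists had p of at most 0.05. Without 6L the medians of the 3 lists were -0.03, -0.0060 and 0.04, and without 5L -0.02, 0.04 and 0.03.

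The 22 endothelial genes known for enhancers bound by ETS, SOXF, TAL1 or GATA2 were all tested, and 21 had a log2 fold change above 0 (median 0.14, all genes 0.00457), with none at p of at most 0.05. The median was 0.045 without 6L and 0.042 without 5L. Pecam1 stood at 0.24 and Cdh5, which encodes VE-cadherin, at 0.11, and the exception was Tek, the angiopoietin receptor, at -0.11. The 8 genes of the endothelial marker sum are all in this list, so that list and sum are not independent.

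Around KLF2 and KLF4, 11 genes of the flow pathway upstream of them (median 0.05, 7 above 0) and 11 of 12 other KLF factors (median 0.02, 6 above 0) were tested, with none at p of at most 0.05. The medians were -0.0062 and -0.03 without 6L. Mef2a, which drives Klf2 transcription, stood at -0.02, the flow sensor Piezo1 at -0.01, Klf6 at 0.03 and Klf13 at -0.0033. Of the Piezo1 windows, 22.7% are shared with Ctu2. The 4 genes known to be induced by KLF2 or KLF4 had log2 fold changes between 0.02 and 0.21, with Thbd (thrombomodulin) at 0.06 and the sphingosine-1-phosphate receptor S1pr1 at 0.02. Of 6 genes known to be repressed by them, 4 were below 0 (median -0.11), none of these with p of at most 0.05 in limma, and the median was 0.28 without 7N. Vcam1, a leukocyte adhesion molecule, was the single gene past the threshold among the 113 tested genes of all these lists (0.885%, against 1.52% of all genes). It measured 758, 703, 671 and 677 normalized reads after agonistic CD40 mAb and 181, 583, 531 and 431 after isotype control, and the groups did not overlap, as for 1.57% of all genes. Vcam1 differed by 0.83 on the log2 scale (SE 0.31, p = 0.0204 in limma, exact permutation p = 0.0286, the smallest that 4 against 4 allows), and its adjusted p over all genes was 1.00. Without 5L the log2 fold change of Vcam1 was 0.46 at a ratio of 1.36, below the threshold ratio, with an unadjusted p of 0.0049 in limma. Scaled to endothelial markers, the ratio of group means of Vcam1 was 1.47, also below the threshold ratio. The scaled log2 fold change of 0.66 lay 0.83 above the shifted median of all genes. Ccl2, a monocyte chemokine, had a log2 fold change of 0.72 (p = 0.0514 in limma, exact permutation p = 0.0571), which was 0.33 without 5L.

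Enzymatic digestion of tissue is known to induce stress genes, Klf2 and Klf4 being sensitive to it as well, and the 15 genes of that response were looked at for this reason. Of these, 14 had a log2 fold change above 0 (median 0.29) and none had p of at most 0.05, and without 5L the median was 0.087. Among them were the immediate-early gene Egr1 at 0.29 and the chaperone Hspa8 at -0.01. The part of digestion in the values of Klf4 was not tested.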

How the data were processed

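RNA of CD45-CD31+ cells from 8 B16-F10 tumors was sequenced, 1 library per tumor. The signal values deposited by the authors are gene read counts from TruSeq libraries without strand, aligned to mm10, assigned to genes in Partek (version 6.6, per the labels) and divided by DESeq2 size factors. The study describes a harvest day correction, flooring and trimming of these data, which are not visible in the values, as 99.9% of them were within 0.1 read of a whole multiple of 1 read. The labels give no batch. Depth differed 21.9-fold between libraries, and counting errors cover reads only, since there are no molecular identifiers.

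Values were tested as log2(value + 1) with limma 3.58.1 in R 4.3.3 (variance trend, treatment as the only term) on 12969 genes with a larger group mean above 10, with Benjamini-Hochberg adjustment, and by two-sided exact permutation of the group means over 70 splits. Mean, SD and ratio refer to values without logarithm. edgeR 4.0.16 and DESeq2 1.42.0 on recovered reads, other pseudocounts, filters, normalizations and limma settings and leaving out each library were alternatives. Scaling to 8 endothelial markers was added after seeing the data. limma was tested on simulated data. Positions and exon lengths are from GENCODE M21, to which 19322 genes (96.34%) matched by symbol. The genes named are the 10 factors and, from each list, the 2 with the highest mean, with up to 3 of the lowest p at or below 0.05, and for each factor a gene of like pattern; Tek, Etv2, Gata1 and Gata3 were added after their values were seen. A few genes that meet this rule are not reported here. The 10 factors and all lists were chosen with earlier results of these data known.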

Additional observations from a re-analysis of the deposited data

Results flagged for a closer look

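Klf2 in the isotype control library 7N, at 257 normalized reads, lay far from the other 3 control libraries, with a gap to the nearest of 0.896 of the range of the group. It was the only such value among the 20 groups of 4 libraries checked for the 10 factors, and chance gives about 1 in 20.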

How the results depend on the processing

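Of 190 recomputed fold changes of the 10 factors, scaling to endothelial markers aside, 179 kept their direction and side of the threshold and 11 reversed, and no factor passed the threshold under any alternative run. The cause of the reversals was not tested. With library quality weights, the log2 fold change was -0.051 for Erg, -0.079 for Sox18, -0.10 for Tal1, -0.086 for Cdh5, -0.016 for Epas1, -0.085 for Ets2, 0.016 for Hif1a, 0.14 for Hspa8 and 0.086 for Tcf12, and it was reduced to 0.086 for Fli1, 0.11 for Sox7, 0.12 for Sox17, 0.072 for Gata2 and 0.26 for Klf4. Scaling to endothelial markers moves all genes alike, with their median at -0.17, and by this shift it was -0.11 for Ets1, -0.048 for Tal1, -0.14 for Klf2, -0.064 for Cdh5, -0.0096 for Ets2, -0.14 for Klf6, -0.15 for S1pr1, -0.00183 for Tcf4 and -0.11 for Thbd, and list medians were -0.14 for other ETS factors, -0.12 upstream of KLF2 and KLF4, -0.15 for other KLF factors and -0.12 for genes induced by KLF2 or KLF4. Quantile normalization gave 0.000109 for Hif1a and 0.076 for Hspa8. On recovered reads, edgeR gave -0.072 and DESeq2 -0.076 for Klf6, and -0.00199 and -0.00511 for S1pr1.

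Leaving out single libraries, the log2 fold change ranged from -0.00204 to 0.12 for Ets1, -0.011 to 0.36 for Sox18, -0.034 to 0.22 for Tal1, -0.12 to 0.20 for Klf2, 0.33 to 0.86 for Ccl2, -0.030 to 0.53 for Egr1, -0.14 to 0.084 for Elk3, -0.049 to 0.27 for Ets2, -0.071 to 0.13 for Hif1a, -0.15 to 0.14 for Hspa8, -0.085 to 0.053 for Klf13, -0.23 to 0.31 for Klf6, -0.11 to 0.084 for Mef2a, -0.18 to 0.12 for Piezo1, -0.11 to 0.18 for S1pr1, -0.14 to 0.059 for Tcf12 and -0.049 to 0.22 for Thbd. For Cdh5 the range was 0.025 to 0.18, for Pecam1 0.16 to 0.36, for Epas1 0.049 to 0.28 and for Tcf4 0.0035 to 0.27. The list median ranged from -0.26 to 0.28 for genes repressed by KLF2 or KLF4, 0.087 to 0.49 for dissociation response genes and 0.042 to 0.24 for endothelial genes with bound enhancers.

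Over all genes, 166 were higher and 31 lower past the threshold. Without a filter these counts were 331 and 93. The lower count was 13 with a group mean above 50, 63 with quantile normalization, 57 without the trend, 70 with quality weights, 47 with edgeR, 58 with DESeq2 and 58 scaled to endothelial markers, and 27 to 123 leaving out single libraries, with 123 without 5L. Among genes repressed by KLF2 or KLF4, 2 passed with a pseudocount of 10, quantile normalization, recomputed size factors, edgeR and DESeq2, 0 scaled to endothelial markers, and 0 to 2 leaving out single libraries. Of other endothelial transcription factors 0 to 1 and of dissociation response genes 0 to 2 passed in this way. Counting error at the fewest reads was 2.19% (Ets1) to 14.0% (Gata2), below the spread of the control libraries for each factor. No paired analysis was possible because the mouse labels of the groups share only the number of 5N and 5L.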
